A study of Mus musculus with 6 samples.

Results

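The genes described here are 35 components of the transforming growth factor beta (TGF-beta) and bone morphogenetic protein (BMP) pathways, taken by gene symbol from the 24421 symbols listed in each library. They comprise 8 ligands, 10 receptors, 7 Smads, 3 Id target genes, 4 latent TGF-beta binding proteins and 3 inhibitors or ubiquitin ligases. All 35 symbols were found. RNA came from endothelial cells sorted from normal brain of C57BL/6 mice and from glioma in C57BL/6 mice, taken 3 weeks after GL26l glioma cells had been injected into the brain. Each group held 3 libraries, and the comparison between them asks how tumor vessels differ from brain vessels. The labels name neither the markers used for the sort nor the number of animals behind each RNA set, so a p-value here reflects only how much these libraries vary, which can be technical.

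TGF-beta ligands are secreted in a latent form bound to latent TGF-beta binding proteins in the matrix, and signal after release through a type II receptor that phosphorylates a type I receptor. TGF-beta and activin receptors act mainly on Smad2 and Smad3, BMP receptors on Smad1 and Smad5, and both classes join Smad4 to enter the nucleus. Endothelial cells are known for a BMP receptor complex of the type I receptor Acvrl1 (ALK1) with the co-receptor Eng (endoglin), whose loss causes vascular malformations in hereditary hemorrhagic telangiectasia. Id genes are direct BMP targets, while Smad6, Smad7, Bambi and the Smurf ligases dampen the signal.

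Values are deposited log2(x + 1) values of reads from the 3′ ends of transcripts, on which many genes are listed at 0. The endothelial label held in every library, where all 16 pan-endothelial markers lay above 0 and held 2.61% to 3.11% of the summed back-transformed values in the normal libraries against 1.40% to 2.34% in glioma libraries. Normal replicate 1 stood apart. Its lowest value above 0 was 7.43, against 0.22 to 5.22 in the other libraries, and Pearson's r across 5880 genes was 0.58 and 0.60 with the other normal libraries, which gave 0.97 with each other. Date-like numbers in the file headers tied normal replicate 2 to 3, and glioma replicate 2 to 3, but never a normal to a glioma library, so what they stand for cannot be told apart from the group. Glioma replicate 1 correlated at 0.67 and 0.54 with glioma replicates 2 and 3. Markers of other cells also differed between libraries. Of 12 fibroblast markers, 11 were above 0 in glioma replicate 1 and 2 to 6 in each other library. Of 18 microglia and macrophage markers, 16 were above 0 in glioma replicate 1, 14 in glioma replicate 3 and 3 to 9 in each other library. Glioma replicate 1 also had the most genes above 0 (13108). By summed share its microglia and macrophage markers held 0.00668%, against 0.0146% in normal replicate 1. Neuron markers held 0.0932% in glioma replicate 1 and 0.00217% to 0.0109% in each other library.

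None of the TGF-beta and BMP genes passed the threshold. Of the 35 members, 31 had enough signal to be tested, and 4 (Tgfb1, Bmp6, Inhba and Ltbp2) were at 0 in 5 of 6 libraries. At a threshold of 0.05 on limma's p after Benjamini-Hochberg adjustment, 0 of 31 members were called and 0 of 11862 genes (0%). No member went lower than 0.875. An unadjusted p under 0.05 was reached by 1 member, Bmpr1a, and by 509 of all genes (4.29%). Other limma settings also called 0 members, one without a mean trend, which called 15 genes, and one with library weights, which called 322. The median difference over the tested members, glioma minus normal, was 0.32 on the log2(x + 1) scale, beside 0.05 over all tested genes, and turned to -0.26 beside -0.36 when normal replicate 1 was left out.

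In 1 tested member every glioma value exceeded every normal value, beside 6.91% of all tested genes, and in 3 every glioma value was under every normal value, beside 6.37%. The higher one was Bmpr1a, a type I BMP receptor. The lower ones were Tgfb2, a TGF-beta ligand, Bmpr2, the main type II BMP receptor, and Smad7, an inhibitory Smad. These shares are near the background. Without normal replicate 1 the counts became 4 wholly higher (14.9% of all genes) and 9 wholly lower (20.6%), and without glioma replicate 1 they became 5 (15.7%) and 5 (13.2%). Without both, a choice made after seeing the data, they became 9 (26.7%) and 11 (28.5%). Without glioma replicate 3 or normal replicate 3, 3 members were wholly higher, beside 12.3% and 9.58%.

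Detection limits the comparison for many members. In normal replicate 1, 17 of the 35 members were listed at 0, against 7 and 4 in the other normal replicates and, in replicate order, 1, 4 and 7 in glioma. Of 25 members above 0 in the other 5 libraries, 8 were at 0 in normal replicate 1: Tgfbr1, Acvr1, Smad3, Smad6, Ltbp3, Bambi, Smurf1 and Smurf2. Over all genes, 2138 of 8018 such genes were at 0 in that library. No value between 0 and 7.43 occurs in that library.

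**Figure D1:**
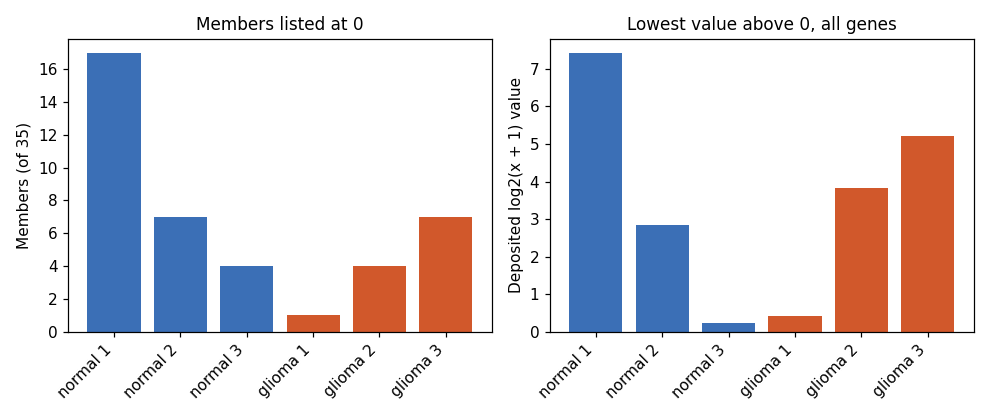
Number of the 35 members listed at 0 in each library (left, bars from 0) and the lowest value above 0 among all genes of that library on the deposited log2(x + 1) scale (right). Blue bars are normal and orange bars glioma libraries. Normal replicate 1 has 17 members at 0 and a lowest value of 7.43.

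Promoter sequence is shown for Smad6, the member whose window holds a perfect palindromic Smad binding element, and for 3 of the members whose groups did not overlap. Windows of 300 bases, from 250 before to 50 after each start site, came from RefSeq on GRCm38.p6, the build also called mm10, and 26 of 35 members had at least 1. Entries for Tgfb3, Bmp2, Tgfbr3, Acvrl1, Smad2, Smad4, Smad7, Id1 and Bambi were not used. Capitals mark the matched motif, and each line reads 5′ to 3′ on the strand of the gene.
Smad6: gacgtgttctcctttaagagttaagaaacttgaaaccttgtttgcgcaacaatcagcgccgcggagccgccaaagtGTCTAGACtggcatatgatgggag
Bmpr1a: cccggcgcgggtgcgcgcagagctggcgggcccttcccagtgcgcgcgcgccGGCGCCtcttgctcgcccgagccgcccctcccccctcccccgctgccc
Bmpr2: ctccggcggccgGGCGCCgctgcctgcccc
Tgfb2: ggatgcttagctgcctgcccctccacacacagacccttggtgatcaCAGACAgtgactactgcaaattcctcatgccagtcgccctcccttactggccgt
The stretches lie at chr9:64022040-64022139 (minus strand), chr14:34502697-34502796 (minus strand), chr1:59764162-59764191 (plus strand) and chr1:186706140-186706239 (minus strand), in the same order. Both strands were searched. GTCTAGAC, which reads the same on both strands, began 4 bases before the start site of Smad6 and was present in 1 of 32 member windows and in 70 of 32851 windows of all genes (0.213%). GGCGCC, a GC-rich element of BMP-responsive promoters, was present in 9 member windows, or 28.1%, beside 11.9% of all windows. These windows belong to 7 members, since Ltbp4 and Smad5 each have a pair of overlapping windows that hold the same match. Base composition was not matched. CAGACA was present in 6 member windows, or 18.8%, and in 6913 of the 32851 windows. TGGCGCC, which contains GGCGCC, was present in 1 member window, that of Smurf2, beside 4.03%. A match describes the letters of a window and does not show binding.

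Among the ligands, Tgfb2 was the most abundant and was steady in normal brain endothelium. Tgfb2 (chromosome 1, 186622792 to 186705989) stood at 10.58, 10.53 and 10.81 in the normal libraries, always given here in replicate order, against 10.28, 10.26 and 8.98 in glioma. All glioma values were lower, by a gap of 0.25 between the nearest libraries, and glioma replicate 3 was the lowest. The means were 10.64 ± 0.15 and 9.84 ± 0.74 (SD, n = 3 each), which leaves glioma minus normal at -0.80 (SE 0.57, limma adjusted p = 0.875), and it was -0.37 without glioma replicate 3. Tgfb1 was at 7.14 in glioma replicate 2 and listed at 0 in the other 5 libraries. Tgfb3 was at 0, 5.75 and 5.86 in the normal libraries against 6.00, 6.70 and 0 in glioma libraries, so it was missing from 1 library of each group. The 3′ end of Tgfb3 lies within or close to Ttll5 on the opposite strand, and the use of strand in counting is not given in the sources used here.

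BMP and activin ligands were low and uneven. Bmp2, a BMP made by brain endothelium, stood at 9.61, 5.87 and 4.52 in the normal libraries against 7.64, 9.10 and 6.73 in glioma libraries. Normal replicate 1 was the highest of all 6, and the other normal libraries were the lowest. The difference in Bmp2 was 1.15 (SE 1.72) with all libraries and 2.62 (SE 1.37, limma adjusted p = 0.555) without normal replicate 1, but 0.080 without normal replicate 3. In Bmp4, a related BMP, normal replicate 1 was likewise the highest and the other normal libraries the lowest, at 9.14, 0 and 3.42 in the normal libraries against 7.03, 5.06 and 8.09 in glioma libraries, with differences of 2.54 (SE 2.83) and, without normal replicate 1, 5.02 (SE 2.09, limma adjusted p = 0.496), but 0.45 without normal replicate 2. The 3′ end of Bmp4 lies within or close to Gm15217. Gm15217 was at 8.93, 0 and 0 in the normal libraries against 2.87, 0 and 8.09 in glioma libraries. In glioma replicate 3 both genes had the same value. Inhbb, the beta B subunit of activins and inhibins, was at 0, 0 and 2.27 in the normal libraries against 2.22, 5.39 and 8.50 in glioma libraries. The groups met only where glioma replicate 1 fell 0.05 under normal replicate 3, and with library medians made equal they did not overlap. The difference of 4.61 (SE 2.27, limma adjusted p = 0.875) lay between 3.05 and 6.18 with each library left out in turn and became 0.36 with every value raised to a floor of 7.43 shared by all libraries. Bmp6 and Inhba were above 0 in glioma replicate 1 alone, at 2.22 and 2.62, both near the lowest value of that library (0.42).

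Latent TGF-beta binding proteins were led by Ltbp4, which separated libraries within both groups. Ltbp4 stood at 9.08, 13.40 and 13.22 in the normal libraries against 8.83, 12.65 and 12.52 in glioma libraries. Replicate 1 was the low library in each group, by over 3 log2 units, and the groups overlapped. The difference was -0.57 (SE 1.35), and it was -0.73 (SE 0.23, limma adjusted p = 0.267) when replicate 1 of both groups was left out. Ltbp3 was at 0, 9.24 and 9.10 in the normal libraries against 7.26, 7.32 and 8.41 in glioma libraries, so every glioma value lay below the 2 normal values above 0. Its difference was 1.55 with all libraries and -1.50 without normal replicate 1. Ltbp1 was at 0, 5.73 and 4.94 in the normal libraries against 8.22, 0 and 0 in glioma libraries. Ltbp2 was at 1.42 in glioma replicate 1, near the lowest value above 0 of that library (0.42), and at 0 elsewhere. Ltbp1 and Ltbp2 were highest in glioma replicate 1, as were Bmp6, Inhba, Acvr2b, Bmpr1a and Id2. That library had 11 of 12 fibroblast markers above 0, among them Col1a2 at 10.93 and Col3a1 at 9.76, with Dpt at 0. It also had 11 of 12 neuron markers and 16 of 18 microglia and macrophage markers above 0. The summed share of the 12 fibroblast markers was 0.000362% to 0.0176% in the normal libraries against 0.00104% to 0.0296% in glioma libraries, highest in glioma replicate 1, and the part of fibroblast RNA in these values was not tested.

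**Figure D2:**
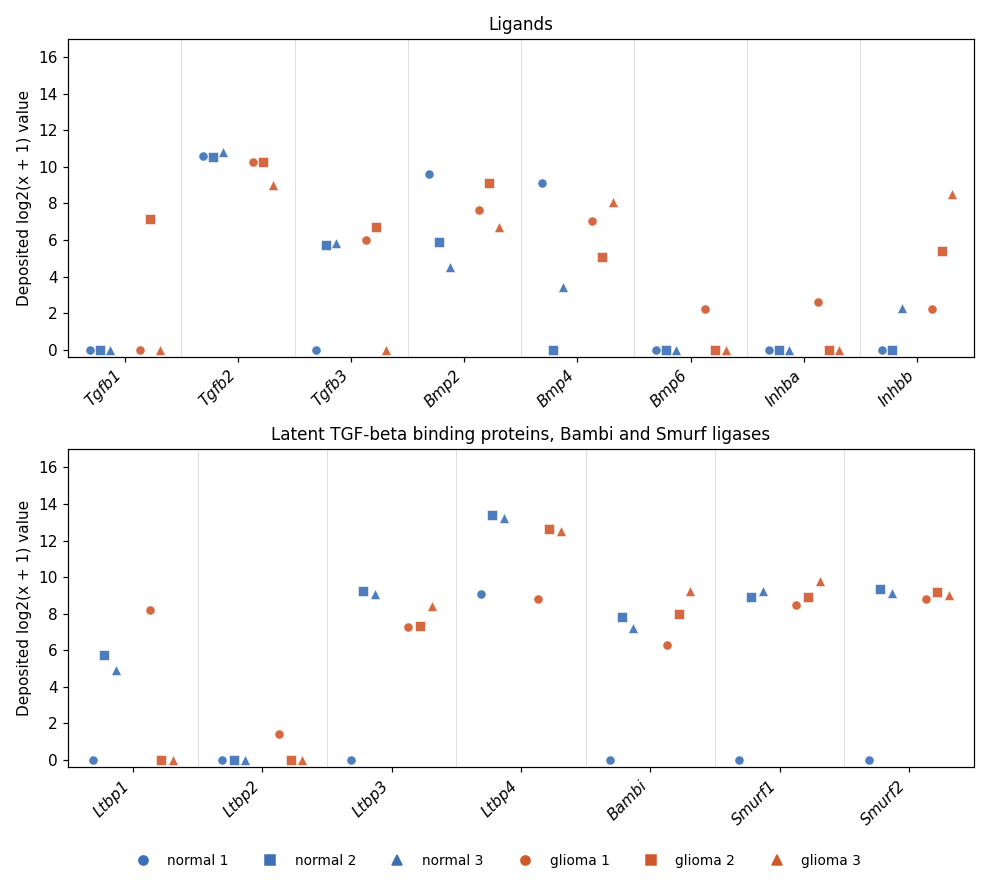
Deposited log2(x + 1) values of ligands (top) and of latent TGF-beta binding proteins, Bambi and the Smurf ligases (bottom) in each library. Blue points are normal and orange points glioma libraries, and circles, squares and triangles are replicates 1, 2 and 3. Tgfb2 lies lower in all 3 glioma libraries, and Ltbp3, Bambi, Smurf1 and Smurf2 are at 0 in normal replicate 1 alone.

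Eng and Acvrl1, the endothelial BMP receptor complex, were the receptors with the highest means over the 6 libraries. Eng (chromosome 2, 32646595 to 32682669) stood at 12.39, 15.68 and 15.40 in the normal libraries against 11.48, 14.44 and 13.80 in glioma libraries. Within each group replicate 1 was lowest by at least 2 log2 units, so the groups overlapped, while glioma replicates 2 and 3 lay below normal replicates 2 and 3. Eng ranked 20th and 26th of all genes in normal replicates 2 and 3, then 69th and 128th in glioma replicates 2 and 3, and 511th and 1082nd in normal and glioma replicate 1. The means were 14.49 ± 1.83 and 13.24 ± 1.56 (SD, n = 3 each), which leaves glioma minus normal at -1.25 (SE 1.03, limma adjusted p = 0.875). It was -2.30 (SE 0.90, adjusted p = 0.496) without normal replicate 1, -0.37 without glioma replicate 1 and -1.42 (SE 0.32, adjusted p = 0.221) without both. The 16 pan-endothelial markers held a smaller share of the sum in all 3 glioma libraries, but their median value was 13.29, 13.17 and 13.53 in the normal libraries against 13.25, 13.43 and 13.57 in glioma. Of these markers, 6 had a difference above 0 and 10 below, with a median difference of -0.21. In such RNA fewer endothelial cells and less RNA per cell cannot be told apart. The 3′ end of Eng lies within or close to Fpgs, which was lower than Eng in every library, at 7.97 to 10.49.

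Acvrl1, the type I receptor that binds circulating BMPs together with endoglin, stood at 12.96, 15.04 and 14.81 in the normal libraries against 13.60, 13.89 and 14.60 in glioma libraries. Normal replicate 1 was the lowest and the other normal libraries the highest. The difference was -0.24 (SE 0.65), and -0.89 (SE 0.53, limma adjusted p = 0.587) without normal replicate 1. Acvrl1 ranked from 37th to 315th in the 6 libraries. Bmpr2 (chromosome 1, 59763400 to 59879014) was the steadiest receptor in normal brain endothelium, at 12.14, 12.21 and 12.24, and stood at 11.34, 12.07 and 12.03 in glioma. All glioma values were lower, although the gap between the nearest libraries was only 0.07. The means were 12.20 ± 0.06 and 11.81 ± 0.41 (SD, n = 3 each), which leaves glioma minus normal at -0.38 (SE 0.43, limma adjusted p = 0.878), or -0.15 without glioma replicate 1. With library medians made equal the groups of Bmpr2 overlapped.

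Bmpr1a, a type I receptor for BMP ligands also called ALK3, was the 1 member wholly higher in glioma. Bmpr1a (chromosome 14, 34410734 to 34503341) was listed at 0 in normal replicates 1 and 2, at 2.81 in normal replicate 3, and at 7.69, 4.87 and 6.30 in glioma replicates 1, 2 and 3. The difference of 5.35 (SE 2.18, limma adjusted p = 0.875) was the largest of any tested member and lay between 4.65 and 6.28 with each library left out in turn. Of the 3 glioma values, 2 lay under 7.43, the lowest value above 0 in normal replicate 1, and with every value raised to that floor the difference was 0.09. The lowest value above 0 of all genes was 3.82 in glioma replicate 2 and 5.22 in glioma replicate 3. Any detection of Bmpr1a in those libraries would thus exceed its 2.81 in normal replicate 3. Acvr1 (ALK2) was at 0, 10.42 and 11.30 in the normal libraries against 7.07, 9.95 and 10.79 in glioma libraries, and Acvr2a, a type II receptor of activins and BMPs, at 8.53, 7.83 and 7.36 against 8.48, 8.15 and 9.04. The groups overlapped for both, and the 3′ end of Acvr2a lies within or close to Orc4. Acvr2b, its close relative, was at 0, 6.75 and 7.15 in the normal libraries against 8.49, 7.52 and 0 in glioma, so it was missing from 1 library of each group.

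The groups of all 3 TGF-beta receptors overlapped. Tgfbr2, the type II receptor, stood at 11.78, 12.03 and 12.29 in the normal libraries against 10.40, 11.91 and 12.59 in glioma libraries, with glioma libraries at both ends of the range. Tgfbr1 (ALK5), its type I partner, was lower, at 0, 7.69 and 6.97 in the normal libraries against 7.53, 4.78 and 8.99 in glioma libraries. Its difference was 2.22 with all libraries and -0.23 without normal replicate 1. Tgfbr3, the co-receptor betaglycan, was at 8.67, 10.00 and 10.05 in the normal libraries against 3.37, 10.15 and 10.95 in glioma libraries. Glioma replicate 1 alone set its direction, since the difference was -1.41 with that library and 0.98 without it. In all 6 libraries Acvrl1 had a higher value than Tgfbr1, both read from 3′ tags, which are not scaled by transcript length.

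**Figure D3:**
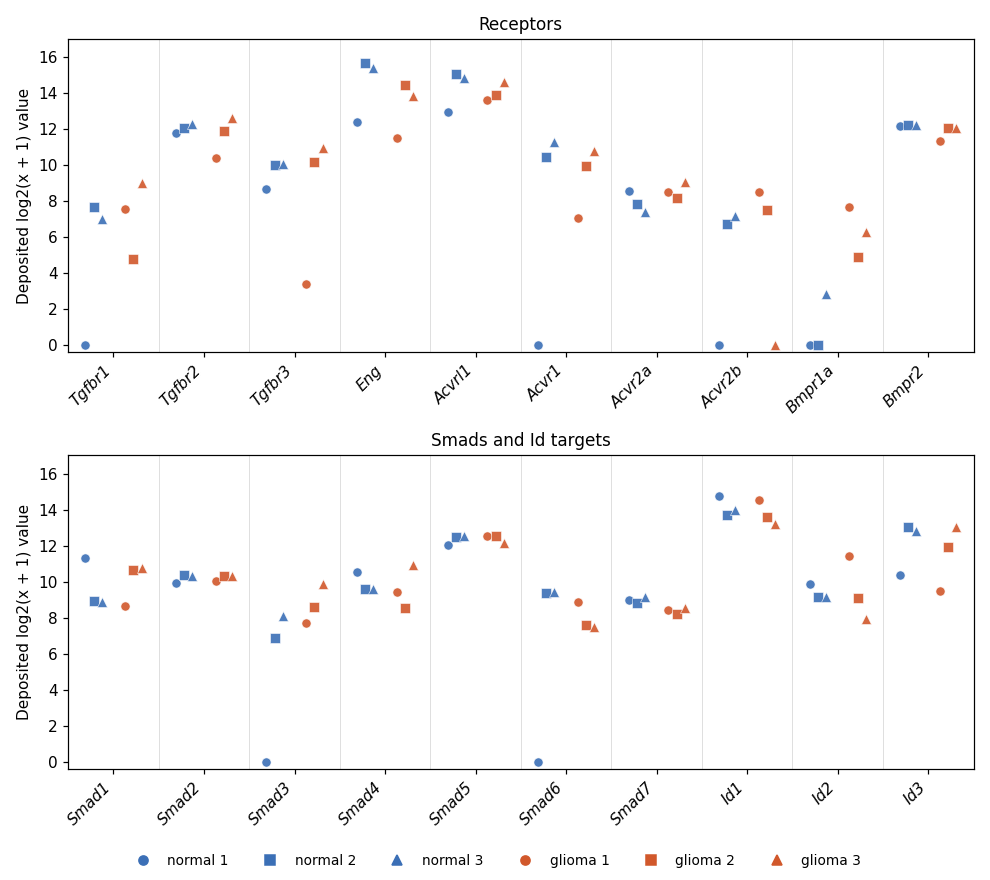
Deposited log2(x + 1) values of receptors (top) and of Smads and Id target genes (bottom) in each library. Blue points are normal and orange points glioma libraries, and circles, squares and triangles are replicates 1, 2 and 3. Bmpr1a lies wholly higher and Bmpr2 and Smad7 wholly lower in glioma, and Eng and Id3 are lowest in replicate 1 of both groups.

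Smad2 and Smad5 hardly differed between the groups. Smad5, which carries BMP signals, stood at 12.01, 12.48 and 12.52 in the normal libraries against 12.50, 12.50 and 12.13 in glioma. Smad2, which carries TGF-beta and activin signals, stood at 9.92, 10.37 and 10.34 against 10.04, 10.31 and 10.30. The groups overlapped for both. The means of Smad5 were 12.34 ± 0.28 in normal and 12.38 ± 0.21 in glioma libraries, and those of Smad2 10.21 ± 0.25 and 10.22 ± 0.15 (SD, n = 3 each). Their differences of 0.04 (SE 0.41) and 0.01 (SE 0.50) were smaller than the spread between replicates. Smad4, the common partner, was at 10.54, 9.60 and 9.58 in the normal libraries against 9.43, 8.55 and 10.89 in glioma libraries, with the groups overlapping. Smad1, the second BMP Smad, stood at 11.32, 8.90 and 8.89 in the normal libraries against 8.66, 10.66 and 10.76 in glioma libraries. Replicate 1 ran against its group on both sides, so the difference was 0.32 (SE 0.89) with all libraries and 1.82 (SE 0.32, limma adjusted p = 0.207) without replicate 1 of both groups. Smad3, the second TGF-beta Smad, was at 0, 6.89 and 8.09 in the normal libraries against 7.69, 8.59 and 9.85 in glioma libraries. The normal and glioma values of Smad3 overlapped by 0.41, and its difference was 3.71 (SE 2.31, limma adjusted p = 0.875) with all libraries and lay between 1.22 (without normal replicate 1) and 5.26 with each library left out in turn.

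Of the inhibitory Smads, Smad7 was lower in all glioma libraries and Smad6 had a direction that rested on normal replicate 1. Smad7, which blocks both branches, stood at 8.96, 8.80 and 9.17 in the normal libraries against 8.42, 8.22 and 8.56 in glioma libraries. The groups were tight and separated by a gap of 0.24. The means were 8.97 ± 0.18 and 8.40 ± 0.17 (SD, n = 3 each), which leaves glioma minus normal at -0.58 (SE 0.75, limma adjusted p = 0.890), which lay between -0.66 and -0.48 with each library left out in turn. The standard error exceeds the spread of these values because limma draws each gene's variance toward that of other genes of like level. Smad6 (chromosome 9, 63953076 to 64022059), which mainly blocks BMP signals, was at 0, 9.35 and 9.44 in the normal libraries against 8.86, 7.60 and 7.50 in glioma libraries. Each glioma value of Smad6 lay below the 2 normal values above 0 and above the normal library at 0. The difference was 1.73 (SE 2.54) with all libraries, -1.40 (SE 0.74, limma adjusted p = 0.558) without normal replicate 1 and -1.84 (SE 0.48, adjusted p = 0.237) without replicate 1 of both groups.

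Of the Id targets, which encode inhibitors of DNA binding that act on basic helix-loop-helix factors, Id1 was among the most abundant genes of all libraries. Id1 stood at 14.76, 13.69 and 13.97 in the normal libraries against 14.54, 13.59 and 13.17 in glioma libraries, ranking from 50th to 252nd. Replicate 1 was the highest of its group on both sides, and the difference of -0.37 (SE 0.55, limma adjusted p = 0.898) was smaller than the spread within the groups. Id3 showed the opposite placing of replicate 1, at 10.37, 13.02 and 12.82 in the normal libraries against 9.48, 11.94 and 13.01 in glioma libraries. Its difference was -0.59 (SE 1.00) with all libraries, -1.44 without normal replicate 1 and 0.41 without glioma replicate 1. Id2 was at 9.89, 9.16 and 9.14 in the normal libraries against 11.44, 9.08 and 7.92 in glioma libraries, where glioma libraries held both extremes. None of the 3 Id genes separated the groups.

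Bambi, a decoy receptor, and the ubiquitin ligases Smurf1 and Smurf2, which mark Smads and receptors for degradation, were each at 0 in normal replicate 1 and detected in the other 5 libraries. Bambi stood at 7.83 and 7.21 in the remaining normal libraries against 6.28, 7.97 and 9.25 in glioma. Smurf1 stood at 8.94 and 9.24 in those normal libraries and at 8.48, 8.93 and 9.78 in glioma, and Smurf2 at 9.37 and 9.15 against 8.80, 9.20 and 9.01. The groups of both ligases overlapped in the detected values. The differences of 2.82 for Bambi, 3.01 for Smurf1 and 2.83 for Smurf2 (SE 2.48, 2.37 and 2.38) rested on the library at 0, and were 0.31, -0.02 and -0.26 without it. Bambi and Smad3 were highest in glioma replicate 3, as were Inhbb, Tgfbr1, Tgfbr2, Tgfbr3, Acvr2a, Smad4 and Smurf1. In that library 14 of 18 microglia and macrophage markers were above 0, with C1qa at 11.69 and with Trem2, Itgam, Ptprc and Ccr2 at 0. These markers held 0.000989% to 0.0146% of the sum in the normal libraries against 0.00186% to 0.0927% in glioma libraries, highest in glioma replicate 3, and the part of those cells in these values was not tested.

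**Figure D4:**
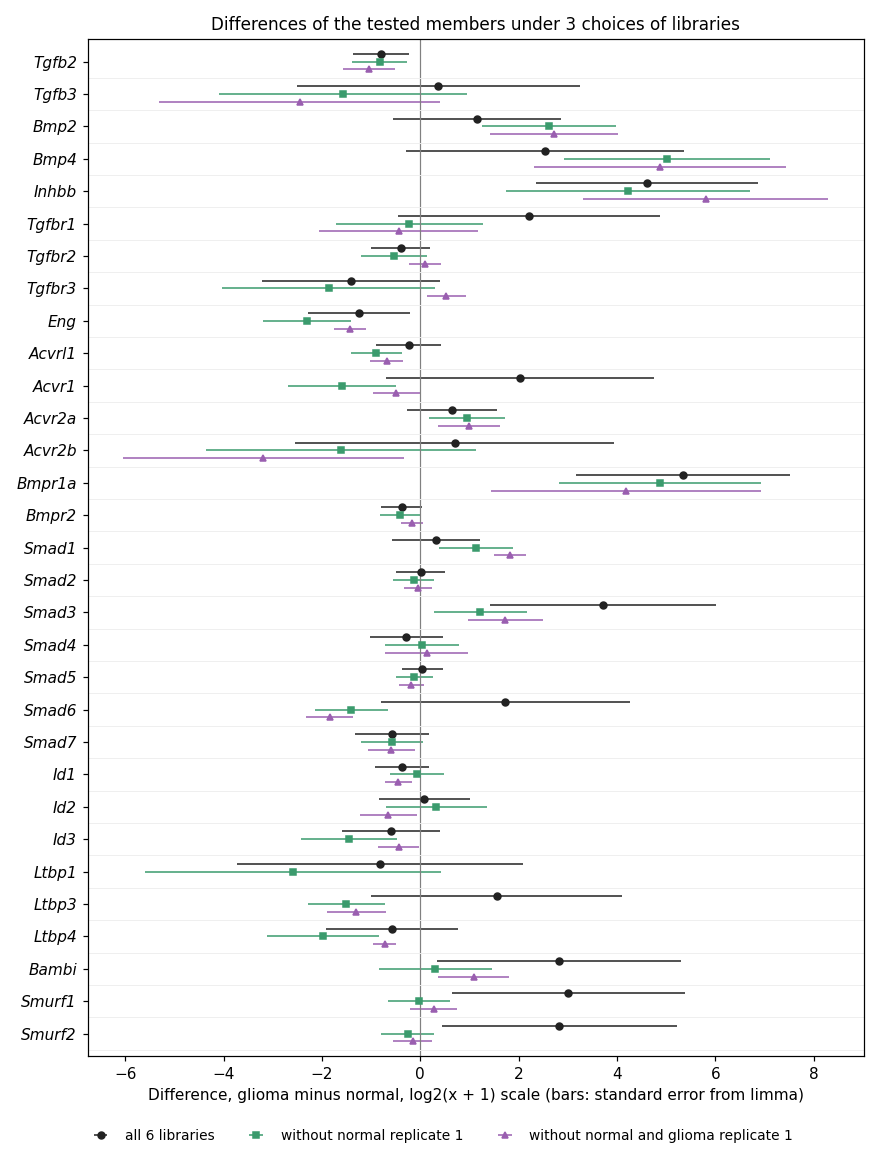
Difference between glioma and normal libraries for the 31 tested members on the log2(x + 1) scale, with standard errors from limma as bars, from all 6 libraries (black circles), without normal replicate 1 (green squares) and without replicate 1 of both groups (purple triangles). Bmpr1a lies farthest to the right with all libraries. When normal replicate 1 is left out 11 members change side, among them Smad6, Ltbp3 and Acvr1. Ltbp1 has no value without replicate 1 of both groups because it was above 0 in fewer than 3 of those libraries.

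A wider set of 103 pathway genes outside the members held 59 that could be tested, and with limma 0 passed the adjusted threshold, while 3 higher and 1 lower reached an unadjusted p under 0.05, beside 2.35% and 1.94% of all tested genes. Their median difference was 0.16, beside 0.05 over all tested genes. In 5 of the 59 every glioma value exceeded every normal one (6.91% of all tested genes), and in 2 every glioma value was lower (6.37%), so these counts are near the background. Snai1, a transcription factor induced by TGF-beta, was at 0, 0 and 3.30 in the normal libraries against 7.90, 5.71 and 6.77 in glioma libraries. Gdf15, a distant member of the ligand family induced by cell stress, was at 0, 0 and 2.00 against 4.97, 7.14 and 7.74. Acvr1b (ALK4), the type I activin receptor, ran the other way, at 7.54, 6.31 and 6.20 in the normal libraries against 0 in all 3 glioma libraries. It passed the filter through the 3 normal libraries alone, so once tested its groups could not overlap. Acvr1b is the 1 lower gene and among the 2 wholly lower genes counted above. Without normal replicate 1 the difference was 5.15 for Snai1 and 5.62 for Gdf15, and neither passed limma's adjusted threshold. The lowest value above 0 was 7.43 in normal replicate 1, 3.82 in glioma replicate 2 and 5.22 in glioma replicate 3. Any value above 0 in glioma replicates 2 and 3 would thus exceed those of Snai1 and Gdf15 in normal replicate 3. Acvr1b in normal replicate 1 was near the lowest value of that library.

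Other pathway genes that separated the groups differed by less. Usp15, a deubiquitinase of the receptors and Smads, stood at 9.33, 8.11 and 8.38 in the normal libraries against 9.77, 9.41 and 9.57 in glioma libraries, and Dab2, an endocytic adaptor, at 11.84, 11.67 and 11.79 against 11.84, 11.89 and 13.27. The groups of Dab2 barely separated, since normal replicate 1 and glioma replicate 1 were equal as rounded here. The BMP target Msx1 was lower, at 8.46, 8.86 and 8.92 in the normal libraries against 7.37, 8.09 and 5.65 in glioma libraries. By role, secreted antagonists had 0 of 7 tested genes separated, latent TGF-beta activation 0 of 6, intracellular regulators 2 of 23, other targets 3 of 14, other ligands 1 of 4 and other receptors 1 of 5, beside 13.3% of all tested genes. The most abundant of each list were Fstl1, a follistatin-related protein (values from 8.19 to 12.48), the protease Furin (11.22 to 12.93), the receptor-binding immunophilin Fkbp1a (13.91 to 15.88), fibronectin Fn1 (15.65 to 17.62), Gdf1 (0 to 10.11) and the co-receptor Nrp1 (12.71 to 13.17). The groups overlapped for each of these 6 genes.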

How the data were processed

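RNA of the 6 sorted samples was sequenced from transcript 3′ ends (Lexogen QuantSeq, per the labels' protocols). The submitters' processing notes name Bowtie2, edgeR and mm10 with no role. For counter, strand and normalization, the sources used here state nothing. The deposited log2 values look like log2(x + 1) of numbers scaled to a common distribution, which is inferred from a highest value of 20.85 in every library and not stated. Depth is unknown, so precision rests on the spread between libraries. Genes reaching 1 on the back-transformed scale in 3 or more libraries (11862) entered a limma fit (version 3.58.1, R 4.3.3) with a trend of variance on level and 4 residual degrees of freedom, and p was adjusted by Benjamini-Hochberg over all of them. The fit was tested on data simulated from genes above 0 in all 6 libraries, so that test did not cover genes listed at 0 in any library. The members and lists were chosen with earlier results of these data known. Values in every library were given for members whose groups do not overlap, for the 2 with the largest difference and the 2 with the highest mean in each role, and for members at 0 where the rest of the role is above 0; the remaining members were added after their values were seen. For other pathway genes the rule took those without overlap and the highest mean of each list. Alternatives changed the filter, the treatment of 0, the pseudocount, scaling, variance prior, replicate block, library weights and libraries used. Gene positions are from GENCODE on GRCm38. Some genes of the wider lists are counted but not reported here by name.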

Additional observations from a re-analysis of the deposited data

How the results depend on the processing

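Depth is unknown, and the spread between libraries limits every comparison. All 31 tested members kept their direction with library medians made equal. Without the filter, without a mean trend and with the replicate block the differences are the same by construction, so their direction was not tested. The same holds for the 17 members above 0 in all 6 libraries. Same-numbered libraries correlated at 0.19, 0.15 and 0.06 in their deviations from the group means, and other pairs at -0.19 to 0.19. Normal replicate 3 correlated best with glioma replicate 2 (0.19). Deviations from a mean of 3 libraries depend on each other, so whether the numbers pair the libraries cannot be told from these values. With the replicate block 0 genes and 0 members passed the adjusted threshold, and 1 member (Eng in place of Bmpr1a) reached an unadjusted p under 0.05, beside 5.14% of all genes. Genes past the adjusted threshold numbered 15 without a mean trend and 322 with library weights, whose estimation stopped before convergence, and included 0 members. Members at an unadjusted p under 0.05 numbered 0 without the filter, beside 2.89% of all genes. They numbered 0 among genes above 0 in all 6 libraries (6.02%) and 0 with a shared floor (5.52%). They numbered 2 without a mean trend (5.02%), 5 with library weights (22.1%) and 4 without replicate 1 of both groups (15.9%). With each library left out they numbered 0 to 2 (2.14% to 10.1%). Members wholly higher in glioma numbered 0 among genes above 0 in all 6 libraries, beside 5.05% of all genes. They numbered 0 with a shared floor (4.14%) and 2 with equal medians (7.6%). Without replicate 1 of both groups they numbered 9 (26.7%), and with each library left out 1 to 5 (8.44% to 15.7%). Members wholly lower numbered 11 (28.5%) and 3 to 9 (7.43% to 20.6%) in these last 2 cases. The median difference lay from -0.26 to 0.68 with each library left out.

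Directions turned as follows, and the cause was not tested. With a shared floor the differences were -0.10 for Bmp2, -0.35 for Bmp4, -0.32 for Acvr1, -0.75 for Smad6, 0.26 for Ltbp1 and -0.83 for Ltbp3, and with log2(x + 16) 0.23 for Ltbp1. With library weights they were -0.41 for Tgfb3, -1.07 for Tgfbr1, -1.47 for Acvr1, -0.68 for Acvr2b, -0.076 for Smad2, -0.072 for Smad5, -1.57 for Smad6, -1.57 for Ltbp3, -0.13 for Smurf1 and -0.050 for Smurf2. Without replicate 1 of both groups, chosen after seeing the data, they were -2.46 for Tgfb3, -0.44 for Tgfbr1, 0.09 for Tgfbr2, 0.53 for Tgfbr3, -0.49 for Acvr1, -3.19 for Acvr2b, -0.05 for Smad2, 0.13 for Smad4, -0.18 for Smad5, -1.84 for Smad6, -0.65 for Id2, -1.30 for Ltbp3 and -0.16 for Smurf2. With each library left out in turn, differences ranged from -1.57 to 2.48 for Tgfb3, -0.23 to 3.62 for Tgfbr1, -0.88 to 0.22 for Tgfbr2, -2.81 to 0.98 for Tgfbr3, -0.89 to 0.15 for Acvrl1, -1.59 to 4.06 for Acvr1, -1.61 to 3.37 for Acvr2b, -0.083 to 1.13 for Smad1 (1.82 without replicate 1 of both groups), -0.13 to 0.10 for Smad2, -0.92 to 0.25 for Smad4, -0.12 to 0.17 for Smad5, -1.40 to 3.31 for Smad6, -0.90 to 0.86 for Id2, -1.44 to 0.41 for Id3, -2.60 to 0.55 for Ltbp1, -1.50 to 3.12 for Ltbp3, -1.98 to 0.68 for Ltbp4, -0.024 to 4.60 for Smurf1 and -0.26 to 4.42 for Smurf2.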
